A study of Mus musculus with 9 samples.

Results

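The blood-brain barrier endothelial genes described here are 10 named genes of the endothelial cells that line brain vessels: Cldn5, Ocln and Tjp1 of the tight junction, Pecam1 and Cdh5 of endothelial adhesion, the transporters Slc2a1, Mfsd2a and Abcb1a, the VEGF receptor Flt1, and Plvap of the fenestral diaphragm. They were chosen by name for their known roles, when earlier results of these data were known, and all 10 were found among the 47643 genes of the deposited count matrix. The samples are poly-A RNA libraries from the hippocampus of 9 mice, 1 library per mouse and 3 mice in each of 3 groups, all taken at 6 weeks. MRL/mpj mice were wild type and untreated. MRL/lpr mice carry the lpr insertion in Fas, develop lupus spontaneously and were untreated. MRL/lpr+MSC mice carry the same insertion and received mesenchymal stem cells, whose dose, route and timing are not given in the sources used here. The labels name C57BL/6 as the strain of all 9 libraries, whereas the study's methods describe MRL/MpJ mice and MRL/MpJ-Faslpr mice.

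The barrier is built by capillary endothelial cells that seal their contacts with tight junctions, keep vesicle traffic low and pass nutrients through selective transporters. Pericytes and astrocyte endfeet surround these cells, Wnt ligands from the brain tissue maintain the barrier state, and VEGF acts on endothelial cells through Flt1 and Kdr. Most hippocampal vessels are of this sealed kind, while the neighbouring choroid plexus has fenestrated vessels.

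Library totals ran from 19475804 to 26912031 counts, and 3 counts, the most that an observed 0 leaves room for by counting error alone, equal 0.111 to 0.154 CPM (counts scaled to library size, here with TMM factors). The lowest count of any of the 10 genes was 162, for Plvap in MRL/lpr+MSC replicate 1, and all 10 passed the filter on low counts in every comparison. The total count of Fas did not separate the genotypes, with 1.998, 1.84 and 1.63 CPM in MRL/mpj mice, 2.28, 1.32 and 1.78 CPM in MRL/lpr mice and 0.997, 1.11 and 1.82 CPM in MRL/lpr+MSC mice. One doubt concerns the labels. In a supplementary table of the study, the columns named MRL/mpj are constant multiples of the counts labelled MRL/mpj, but the columns named MRL/lpr are constant multiples of the counts labelled MRL/lpr+MSC. The labels were kept, and each MRL/lpr group is set against MRL/mpj in turn. A fit of all 6 MRL/lpr libraries together does not depend on which mice received stem cells. Its values are given for Cldn5 and Slc2a1, the 2 members it called. Values of the other members and of the listed genes are given by group only and rest on the labels. The 2 comparisons of an MRL/lpr group with MRL/mpj share the MRL/mpj libraries and are not independent of each other. Whole tissue was sequenced, so fewer endothelial cells and less RNA per endothelial cell cannot be told apart.

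The 2 members with the largest differences between the strains were Cldn5 and Slc2a1, and Kdr had the largest difference among a list of 20 endothelial identity genes. The 250 bases before the RefSeq start of these 3 genes are therefore printed (GRCm38.p6, 5′ to 3′ on the strand of the gene). Capitals mark matches on either strand to 4 short motifs: CCGGAA of ETS factors, present in 12.03% of 32851 mouse promoters of this length, AACAAT of SOX factors in 9.42%, CTTTGA of TCF/LEF factors in 13.8%, and ACGTG, the core of the hypoxia response element, in 16.6%. The Cldn5 sequence lies at chr16:18776597-18776846 on the plus strand, that of Slc2a1 at chr4:119108495-119108744 on the plus strand, and that of Kdr at chr5:75978456-75978705 on the minus strand.
Cldn5: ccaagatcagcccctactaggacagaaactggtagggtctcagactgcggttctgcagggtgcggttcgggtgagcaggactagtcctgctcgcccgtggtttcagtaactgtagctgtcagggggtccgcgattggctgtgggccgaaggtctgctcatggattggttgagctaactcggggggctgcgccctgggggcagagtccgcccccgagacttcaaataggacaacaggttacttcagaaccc
Slc2a1: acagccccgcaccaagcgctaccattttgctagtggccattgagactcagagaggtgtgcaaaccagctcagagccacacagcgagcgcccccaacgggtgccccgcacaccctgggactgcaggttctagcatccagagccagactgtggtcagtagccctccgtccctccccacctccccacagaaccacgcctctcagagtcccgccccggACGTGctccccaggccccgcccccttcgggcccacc
Kdr: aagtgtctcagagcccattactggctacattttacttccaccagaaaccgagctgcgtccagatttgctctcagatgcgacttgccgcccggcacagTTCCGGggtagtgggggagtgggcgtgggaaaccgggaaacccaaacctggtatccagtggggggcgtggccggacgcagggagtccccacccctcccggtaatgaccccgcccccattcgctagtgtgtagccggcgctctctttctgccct
The Cldn5 sequence held none of the 4 motifs, that of Slc2a1 held 1 ACGTG, and that of Kdr held 1 CCGGAA, read on the opposite strand as TTCCGG. The Slc2a1 sequence runs past the start of that gene in the GENCODE annotation, 119108711, and its ACGTG match spans that position. A match is a description of the letters and not a bound site. Of the 10 members, 7 had a promoter entry. Pecam1, Cdh5 and Plvap had none.

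In the hippocampus of MRL/lpr mice, Cldn5 was the 1 member that rose against MRL/mpj mice, and none fell. Of the 16697 genes that entered this fit, 9.12% were called (adjusted p under 0.05 by limma voom, Benjamini-Hochberg over all genes), 4.44% as higher and 4.68% as lower, so 1 call among 10 members is close to the background. In MRL/lpr+MSC against MRL/mpj mice, Cldn5 was again the 1 member called, against a background of 4.89% of 16196 genes, 2.33% as higher and 2.56% as lower. The median log2 fold change of the 10 members was 0.10 in the first comparison and 0.04 in the second, beside 0.03 and 0.00 for all genes tested. Between MRL/lpr+MSC and MRL/lpr mice, 0 members and 0 of 16758 genes were called by limma voom or by limma-trend. At an unadjusted p under 0.05, that comparison had 0 members and 646 genes. The 3 panels of fitted differences show how the members spread around 0.

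By the values of single libraries, the groups did not overlap for 2 of 10 members in MRL/lpr against MRL/mpj, with Cldn5 higher and Slc2a1 lower. Of all genes tested, 38.1% did not overlap, 19.3% as higher and 18.8% as lower. In the comparison of MRL/lpr+MSC with MRL/mpj, 4 of 10 members did not overlap, with Cldn5, Pecam1 and Flt1 higher and Slc2a1 lower, beside 29.4% of all genes, 15.8% as higher and 13.6% as lower. Between MRL/lpr+MSC and MRL/lpr, Flt1 was the 1 member without overlap, and 9.97% of all genes had none, 4.51% as higher and 5.46% as lower. With 10 members, none of these shares is read as a result about the members.

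**Figure D1:**
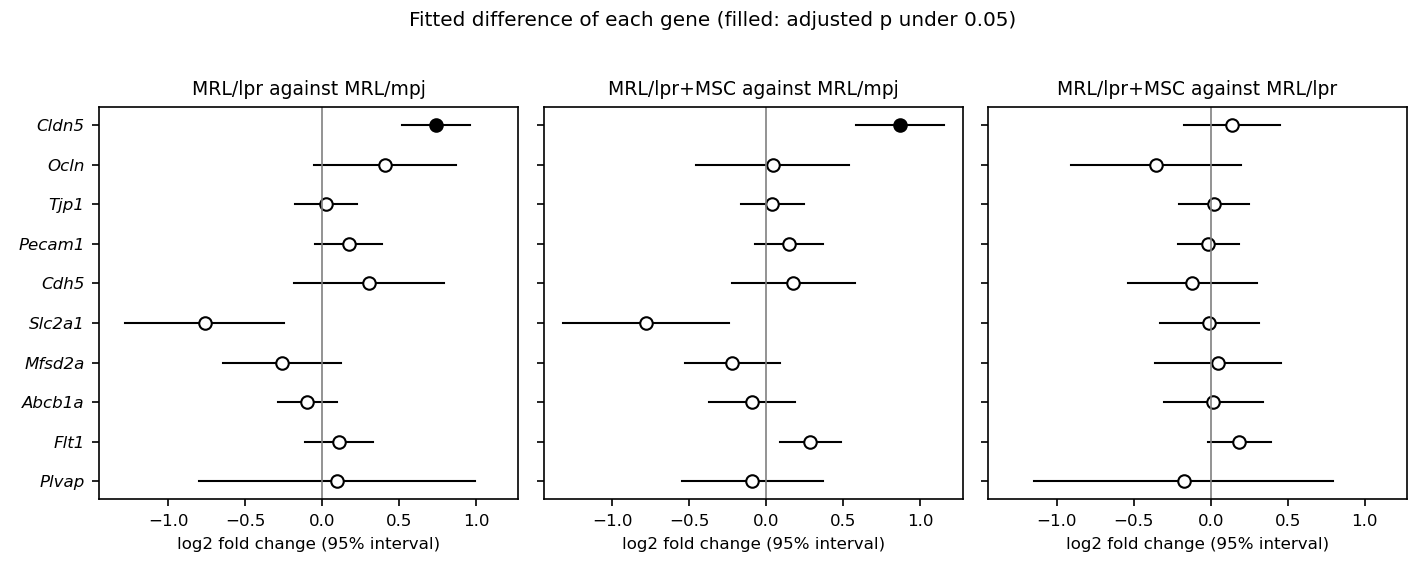
The log2 fold change of each of the 10 genes (x axis, with its 95% interval as a line) in the 3 comparisons, fitted by limma voom on 3 libraries against 3, with filled points where the adjusted p was under 0.05. Cldn5 is the 1 filled point in each comparison with MRL/mpj, at 0.74 and 0.87, Slc2a1 lies farthest to the left at -0.76 and -0.78, and no point is filled in MRL/lpr+MSC against MRL/lpr.

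Cldn5 (ENSMUSG00000041378, chromosome 16, 18776847 to 18778262, GRCm38) encodes claudin-5, the main claudin of the brain endothelial tight junction. Its level was 34.6, 34.5 and 30.8 CPM in the MRL/mpj libraries, 56.1, 50.2 and 59.8 CPM in the MRL/lpr libraries and 72.7, 59.2 and 53.3 CPM in the MRL/lpr+MSC libraries. Every MRL/lpr library, with or without stem cells, stood above every MRL/mpj library, and the 2 MRL/lpr groups overlapped. From a mean of 33.3 ± 2.18 CPM (SD, n = 3) in MRL/mpj, the level was 1.67-fold higher in MRL/lpr mice at 55.4 ± 4.85 CPM (SD, n = 3), with a 95% interval of the fold from 1.44 to 1.94 (0.74 on the log2 scale, SE 0.09, adjusted p = 0.00872 by limma voom). It was 1.82-fold higher in MRL/lpr+MSC mice at 61.7 ± 9.93 CPM (SD, n = 3), with an interval from 1.49 to 2.22 (0.87 on the log2 scale, SE 0.12, adjusted p = 0.0117 by limma voom). With all 6 MRL/lpr libraries together, the log2 fold change was 0.80 (adjusted p = 0.00281 by limma voom). MRL/lpr+MSC and MRL/lpr mice differed by 0.14 on the log2 scale, with an interval from -0.18 to 0.45 (adjusted p = 0.926 by limma voom). The call rested on the MRL/mpj libraries in part. Without MRL/mpj replicate 3 the adjusted p of the first comparison was 0.0557, and that of the second was 0.0646, 0.0653 and 0.0677 without MRL/mpj replicates 1, 2 and 3 in turn, while every fold change stayed between 0.69 and 0.96 on the log2 scale.

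Ocln (ENSMUSG00000021638, chromosome 13, 100496507 to 100552718), which encodes the tight junction protein occludin, was not called in any of the 3 comparisons fitted without a replicate term. Its level was 18.3, 20.9 and 14.9 CPM in MRL/mpj mice, 24.1, 29.3 and 19.1 CPM in MRL/lpr mice and 14.8, 24.4 and 17.8 CPM in MRL/lpr+MSC mice. The 3 groups overlapped, and replicate 2 was the highest library in each of them. The log2 fold change was 0.41 in MRL/lpr against MRL/mpj mice (95% interval -0.06 to 0.87, adjusted p = 0.209 by limma voom) and 0.04 in MRL/lpr+MSC against MRL/mpj mice (interval -0.46 to 0.54).

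Tjp1 (ENSMUSG00000030516, chromosome 7, 65296165 to 65527781) encodes ZO-1, the scaffold that ties claudins and occludin to actin. Its level was 117, 129.7 and 115 CPM in MRL/mpj mice, 133, 118 and 114 CPM in MRL/lpr mice and 128, 132 and 113 CPM in MRL/lpr+MSC mice. The groups overlapped throughout, and the intervals of the log2 fold change ran from -0.17 to 0.23 and from -0.17 to 0.24 in the 2 comparisons with MRL/mpj. Of these 3 tight junction genes only Cldn5 passed the test between the strains, in either comparison, and the differences between the 3 genes' fold changes were not tested.

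**Figure D2:**
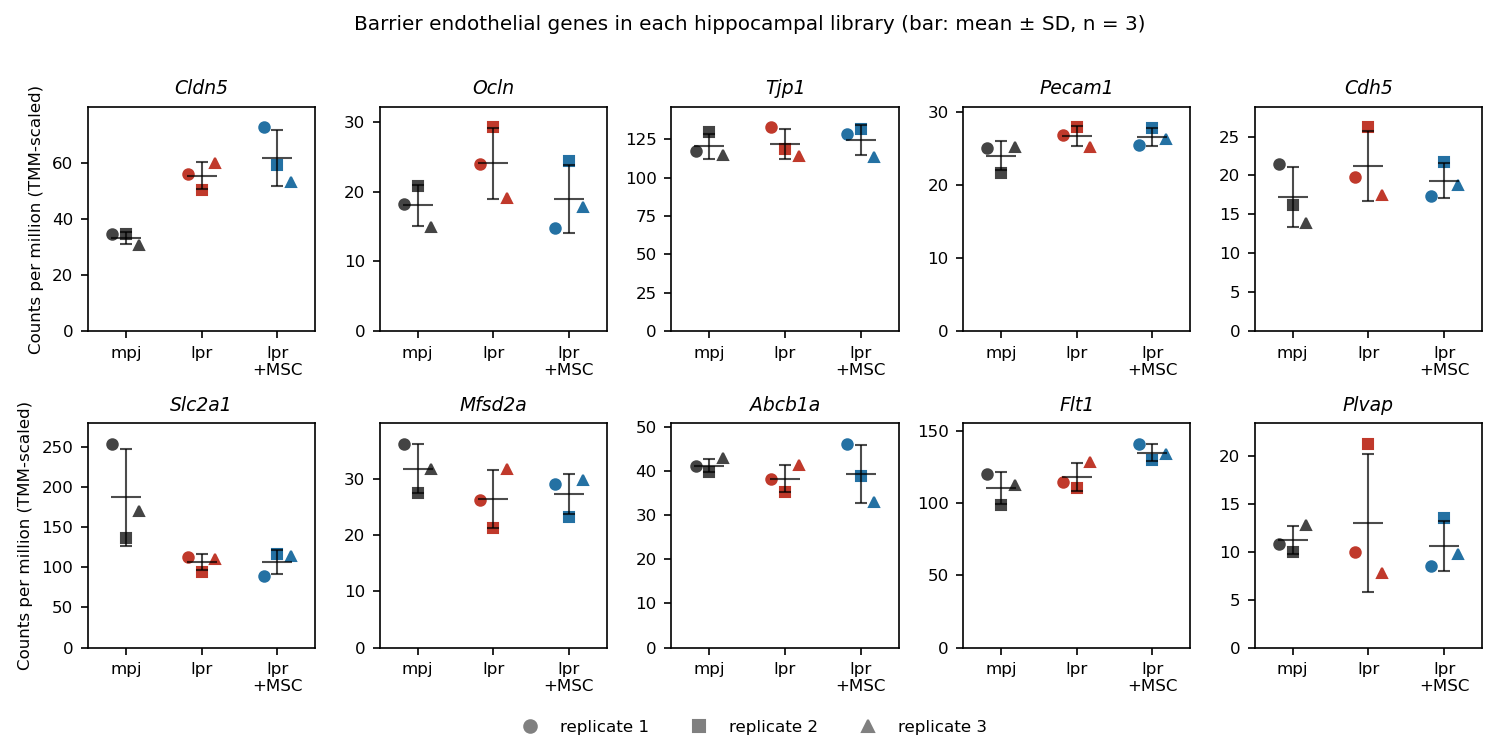
TMM-scaled CPM (y axes, from 0) of the 10 genes in each of the 9 hippocampal libraries, with the 3 groups along the x axis, a marker shape for each replicate number, and bars for the mean ± SD of 3 libraries. Cldn5 lies between 30.8 and 34.6 CPM in MRL/mpj mice and between 50.2 and 72.7 CPM in the 6 MRL/lpr libraries, Slc2a1 has no overlap in the opposite direction, and Plvap and Ocln are highest in replicate 2 of the MRL/lpr and MRL/lpr+MSC groups.

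Pecam1 (ENSMUSG00000020717, chromosome 11, 106654217 to 106750628) encodes CD31, an adhesion molecule of endothelial cell contacts. Its level was 25.0, 21.6 and 25.2 CPM in MRL/mpj mice, 26.9, 27.8 and 25.2 CPM in MRL/lpr mice and 25.4, 27.8 and 26.3 CPM in MRL/lpr+MSC mice. All 3 MRL/lpr+MSC libraries were above the MRL/mpj libraries, and the log2 fold change of 0.15 (interval -0.07 to 0.37, adjusted p = 0.397 by limma voom) was not called. Cdh5 (ENSMUSG00000031871, chromosome 8, 104101625 to 104144511) encodes VE-cadherin, the cadherin of endothelial adherens junctions. It had 21.5, 16.2 and 13.9 CPM in MRL/mpj mice, 19.8, 26.2 and 17.5 CPM in MRL/lpr mice and 17.4, 21.8 and 18.8 CPM in MRL/lpr+MSC mice. These ranges overlapped, with log2 fold changes of 0.30 (interval -0.18 to 0.79) and 0.17 (interval -0.22 to 0.57) against MRL/mpj.

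Slc2a1 (ENSMUSG00000028645, chromosome 4, 119108711 to 119137983) encodes GLUT1, the glucose transporter of the barrier endothelium, which astrocytes also express. It had 254, 137 and 170.3 CPM in MRL/mpj mice, 113, 94.7 and 111 CPM in MRL/lpr mice and 88.8, 117 and 114 CPM in MRL/lpr+MSC mice. Every MRL/lpr library was below every MRL/mpj library, and MRL/mpj replicate 1 stood well above its group. The MRL/mpj mean was 187 ± 60.2 CPM (SD, n = 3), and the MRL/lpr mean was 106 ± 9.88 CPM (SD, n = 3). Their log2 fold change of -0.76 (SE 0.21, interval -1.28 to -0.25) missed the threshold (adjusted p = 0.0726 by limma voom). The MRL/lpr+MSC mean was 107 ± 15.5 CPM (SD, n = 3), with a log2 fold change of -0.78 (interval -1.32 to -0.24, adjusted p = 0.104 by limma voom). With all 6 MRL/lpr libraries together, the log2 fold change of -0.78 passed (adjusted p = 0.0244 by limma voom). Without MRL/mpj replicate 1 the values were -0.52 and -0.55 (adjusted p = 0.113 and 0.202 by limma voom), and the direction held. MRL/lpr+MSC and MRL/lpr mice differed by -0.01 on the log2 scale (interval -0.33 to 0.31).

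Mfsd2a (ENSMUSG00000028655, chromosome 4, 122946850 to 122961188) encodes a lysolipid transporter that keeps transcytosis low in barrier endothelium. Its level was 36.3, 27.6 and 31.8 CPM in MRL/mpj mice, 26.4, 21.3 and 31.8 CPM in MRL/lpr mice and 29.1, 23.3 and 29.8 CPM in MRL/lpr+MSC mice. The groups overlapped, at log2 fold changes of -0.26 (interval -0.64 to 0.12) and -0.22 (interval -0.53 to 0.09) against MRL/mpj. Abcb1a (ENSMUSG00000040584, chromosome 5, 8660077 to 8748575) encodes the drug efflux pump P-glycoprotein. It ranged from 39.8 to 42.8 CPM in MRL/mpj mice, from 35.2 to 41.4 CPM in MRL/lpr mice and from 33.04 to 46.1 CPM in MRL/lpr+MSC mice, again with overlap. Its close relative Abcb1b, with which reads could be shared, was far lower, with a mean of 3.797 ± 0.542 CPM (SD, n = 3) in MRL/mpj, and was not called either.

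Flt1 (ENSMUSG00000029648, chromosome 5, 147561604 to 147726011) encodes VEGFR-1, a receptor that binds VEGF tightly and signals weakly. It had 120.4, 98.7 and 113 CPM in MRL/mpj mice, 115, 111 and 129 CPM in MRL/lpr mice and 141, 130.1 and 134 CPM in MRL/lpr+MSC mice. All 3 MRL/lpr+MSC libraries stood above the other 6, but neither difference was called. Against MRL/mpj the log2 fold change was 0.29 (interval 0.09 to 0.48, adjusted p = 0.102 by limma voom), and against MRL/lpr it was 0.19 (interval -0.02 to 0.39, adjusted p = 0.926 by limma voom).

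Plvap (ENSMUSG00000034845, chromosome 8, 71497765 to 71511752) encodes the protein of fenestral and caveolar diaphragms, which mature barrier endothelium lacks and choroid plexus vessels carry. Its level was 10.8, 9.94 and 12.8 CPM in MRL/mpj mice, 10.01, 21.3 and 7.81 CPM in MRL/lpr mice and 8.50, 13.5 and 9.76 CPM in MRL/lpr+MSC mice. MRL/lpr replicate 2 alone exceeded 20 CPM, MRL/lpr+MSC replicate 2 came next, and the groups overlapped. The log2 fold changes against MRL/mpj were 0.10 (interval -0.80 to 0.99) and -0.09 (interval -0.55 to 0.37), and the first turned to -0.30 (adjusted p = 0.268 by limma voom) without MRL/lpr replicate 2.

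The same 2 libraries stood apart in markers of other tissue. The summed level of 11 choroid plexus epithelium genes was 9793 CPM in MRL/lpr replicate 2 and 4963 CPM in MRL/lpr+MSC replicate 2, and lay between 111 and 1132 CPM in the other 7 libraries. Ttr, the transthyretin gene of that epithelium, had 8755 and 4398 CPM in these 2 libraries and 51.1 to 934 CPM elsewhere. No gene of this list was at 0 in any library. By limma voom 0 of the 11 were called in any comparison, with 2 at an unadjusted p under 0.05 when MRL/lpr was set against MRL/mpj and 0 in the other 2 comparisons. The 10 genes of perivascular and meningeal fibroblasts summed to 787 and 504 CPM in the same 2 libraries and to between 101 and 331 CPM in the others, with Dpt at 0 in at least 1 library. Plvap, Ocln, Cdh5 and Pecam1 also had the highest value of their group in these 2 libraries, and the part of choroid plexus or meningeal tissue in their levels was not tested.

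The summed ependymal genes lay higher in every MRL/lpr library than in any MRL/mpj library. The 5 genes summed to 14.6 to 16.2 CPM in MRL/mpj mice, 45.5 to 141 CPM in MRL/lpr mice and 24.2 to 83.4 CPM in MRL/lpr+MSC mice, with no overlap between MRL/mpj and either group, and none was at 0. By limma voom 0 of the 5 were called in either comparison, with 5 and 3 at an unadjusted p under 0.05. The 10 genes of striatal and thalamic neurons summed to 164 to 196 CPM in MRL/mpj mice and 253 to 373 CPM in MRL/lpr mice, but to 120.1 CPM in MRL/lpr+MSC replicate 1. Cldn5 separated the strains in the same libraries as the ependymal genes. In MRL/lpr+MSC replicate 1 the choroid plexus, ependymal and striatal and thalamic sums were the lowest of the 6 MRL/lpr libraries. Cldn5 was the highest of all 9 in that library, at 72.7 CPM. The part of these tissues in the level of Cldn5 was not tested, and 1 library cannot show it. Without MRL/lpr replicate 2 the Cldn5 log2 fold change was 0.80 (adjusted p = 0.00484 by limma voom), and without MRL/lpr+MSC replicate 2 it was 0.88 (adjusted p = 0.0389 by limma voom).

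**Figure D3:**
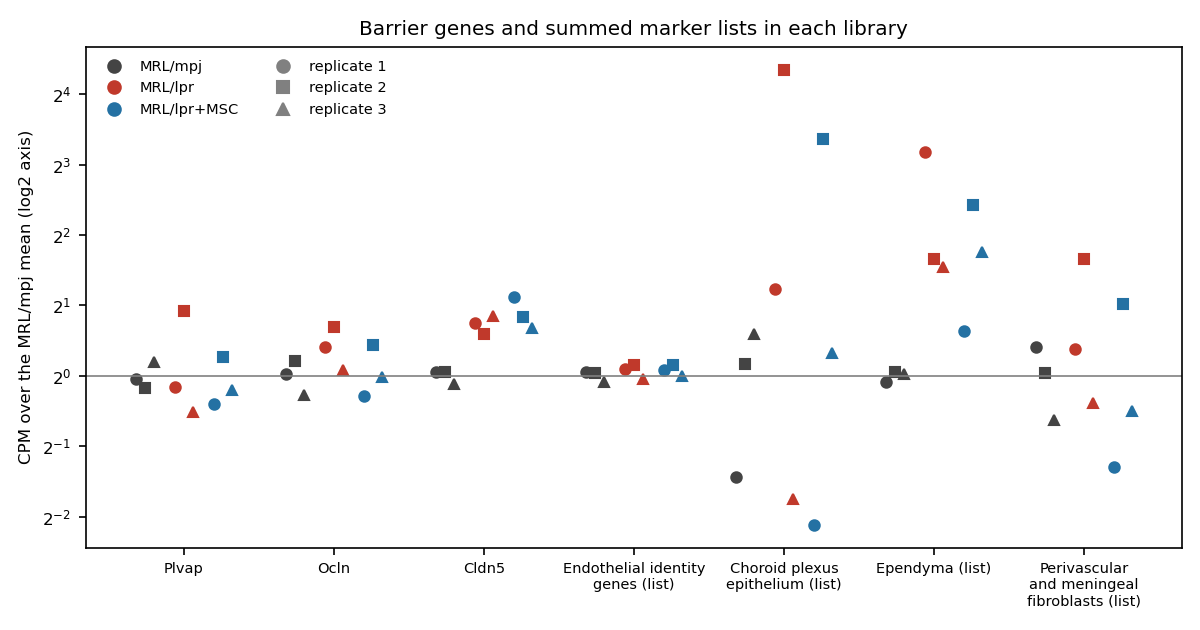
Plvap, Ocln and Cldn5 and the summed CPM of 4 marker lists in each of the 9 libraries, divided by the mean of the 3 MRL/mpj libraries (y axis, log2 scale), with colours for groups and shapes for replicate numbers. The choroid plexus sum reaches 20.4 and 10.3 times the MRL/mpj mean in replicate 2 of MRL/lpr and MRL/lpr+MSC, whereas the sum of the endothelial identity genes stays between 0.94 and 1.11 times that mean.

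The summed level of endothelial identity genes overlapped between all 3 groups. The 20 endothelial identity genes, such as Tek, Tie1 and Erg, were all tested and none was at 0. They summed to between 311 and 344 CPM in MRL/mpj mice, 323 and 369 CPM in MRL/lpr mice and 331 and 369 CPM in MRL/lpr+MSC mice. Relative to that sum in the same library, Cldn5 was 0.66 higher in MRL/lpr and 0.80 higher in MRL/lpr+MSC than in MRL/mpj mice on the log2 scale, and the difference of Slc2a1 by the same measure was -0.85 in both groups, each without overlap. The other 8 members overlapped between groups on this scale, Pecam1 and Flt1 included.

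The order of the members by transcript level per length also differed between the strains. FPKM, the authors' count scaled by gene length and library size, puts genes of different length on one scale. In MRL/mpj mice Slc2a1 led at 53.5 ± 17.0 FPKM (SD, n = 3), ahead of Cldn5 at 23.7 ± 1.36, Tjp1 at 15.5 ± 0.980 and Mfsd2a at 14.2 ± 1.91. Flt1 at 8.23 ± 0.821, Abcb1a at 7.55 ± 0.336, Plvap at 5.58 ± 0.773, Cdh5 at 4.33 ± 0.953, Ocln at 4.29 ± 0.688 and Pecam1 at 3.86 ± 0.339 followed. Of these neighbours, Tjp1 and Mfsd2a overlapped, as did Flt1 and Abcb1a, and the 4 lowest genes each overlapped with the next. In MRL/lpr and MRL/lpr+MSC mice Cldn5 led, at 39.0 ± 3.22 and 43.5 ± 7.01 FPKM (SD, n = 3), and Slc2a1 came next at 30.1 ± 2.60 and 30.3 ± 4.38 FPKM.

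The ratio of Cldn5 to Slc2a1 FPKM was 0.338, 0.625 and 0.449 in the MRL/mpj libraries, 1.24, 1.31 and 1.34 in the MRL/lpr libraries and 2.03, 1.25 and 1.16 in the MRL/lpr+MSC libraries. It was below 1 in each MRL/mpj library and above 1 in each of the other 6. This pair was picked after its values were seen, so the ratio is given without a test.

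**Figure D4:**
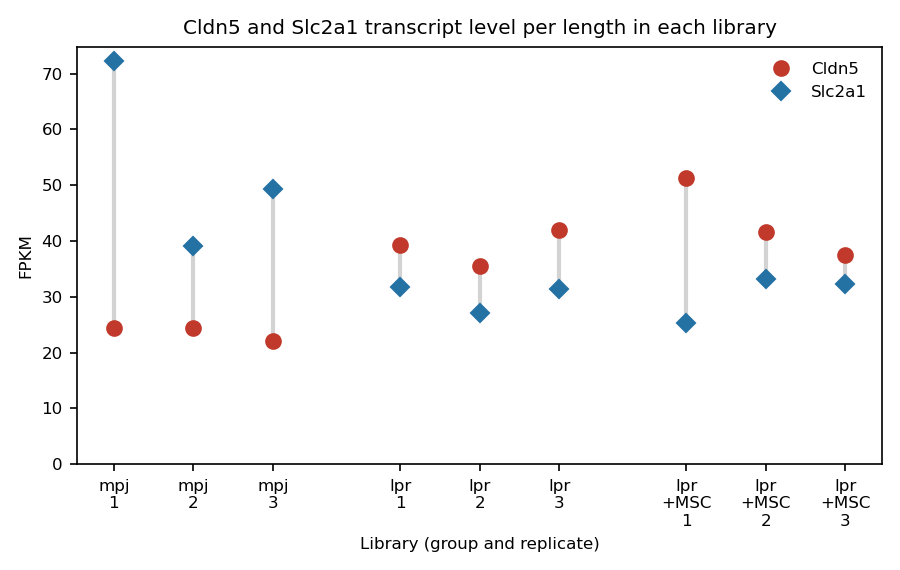
FPKM of Cldn5 (circles) and Slc2a1 (diamonds) in each of the 9 libraries, with a grey line joining the 2 genes of a library. Slc2a1 is above Cldn5 in the 3 MRL/mpj libraries, where it runs from 39.1 to 72.3 FPKM, and below it in the 6 MRL/lpr libraries, where it runs from 25.3 to 33.2 FPKM.

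Among the 20 endothelial identity genes, 1 rose and 1 fell in MRL/lpr against MRL/mpj mice, with a list median of 0.10. The background for this and every later list is 4.44% of all genes called higher and 4.68% called lower. In MRL/lpr+MSC against MRL/mpj mice it is 2.33% and 2.56%. Whole tissue was sequenced, so the level of a listed gene can also come from cells outside the vessels. Kdr, which encodes VEGFR-2, the main signalling receptor of VEGF, had 14.4, 18.8 and 16.5 CPM in MRL/mpj mice, 39.3, 44.8 and 33.3 CPM in MRL/lpr mice and 44.9, 43.8 and 44.1 CPM in MRL/lpr+MSC mice. All 6 MRL/lpr libraries had more Kdr than any MRL/mpj library. The log2 fold change was 1.24 in MRL/lpr (SE 0.16, adjusted p = 0.00898 by limma voom) and 1.41 in MRL/lpr+MSC mice (SE 0.11, adjusted p = 0.00109 by limma voom), and with each library left out in turn the call held in 4 of 6 and 6 of 6 fits. Cd34, a sialomucin of capillary endothelium and progenitor cells, fell from 39.0 ± 2.07 to 23.0 ± 3.77 CPM (SD, n = 3) in MRL/lpr mice (log2 fold change -0.75, adjusted p = 0.0189 by limma voom), a call that held in 3 of 6 fits with a library left out. The MRL/lpr+MSC mean of Cd34 was 29.2 ± 4.48 CPM (SD, n = 3), and each of its libraries lay below every MRL/mpj library, but the gene was not called (adjusted p = 0.0904 by limma voom). The remaining 18 genes were not called, among them Tek at a log2 fold change of 0.10 and Tie1 at 0.23 in MRL/lpr mice.

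VEGF and Notch pathway genes, the signals that shape vessel growth, showed 3 rises and 0 falls among 15 tested when MRL/lpr was compared with MRL/mpj, with a median of 0.12. Vegfa, the ligand of Flt1 and Kdr, had 69.1, 62.8 and 61.2 CPM in MRL/mpj mice and 93.9, 76.4 and 107 CPM in MRL/lpr mice (log2 fold change 0.52, adjusted p = 0.0497 by limma voom). The MRL/lpr+MSC libraries had 79.7, 72.3 and 81.1 CPM of Vegfa, without overlap with MRL/mpj but not called (adjusted p = 0.0949 by limma voom). The co-receptor Nrp2 rose by 0.55 and Notch4, an endothelial Notch receptor, by 0.51 on the log2 scale in MRL/lpr mice (adjusted p = 0.0135 and 0.0477 by limma voom). Of the same 15 genes, 2 rose in MRL/lpr+MSC mice, Notch4 by 0.65 and Dll4, the endothelial Notch ligand, by 0.96 (adjusted p = 0.0358 and 0.0497 by limma voom). In MRL/lpr mice the log2 fold change of Dll4 was 1.08, without overlap with MRL/mpj but not called (adjusted p = 0.0555 by limma voom). Vegfa, Notch4 and Dll4 lay near the threshold, and each of these calls held in 1 of the 6 fits that left out a library, against 3 of 6 for Nrp2.

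Of 14 other tight and adherens junction genes, 2 rose and 0 fell in MRL/lpr against MRL/mpj mice, the median log2 fold change was 0.54 and 14 of 14 were above 0, beside a median of 0.03 and 54.1% above 0 for all genes tested. Cldn3, a claudin found mainly in epithelia, went from 0.450, 0.214 and 0.488 CPM in MRL/mpj mice to 2.001, 1.74 and 1.99 CPM in MRL/lpr mice (log2 fold change 2.36, adjusted p = 0.0143 by limma voom). Cgn, the epithelial and endothelial junction protein cingulin, had 2.15, 2.23 and 2.55 CPM in MRL/mpj mice and 5.62, 8.12 and 7.47 CPM in MRL/lpr mice (log2 fold change 1.59, adjusted p = 0.0143 by limma voom). Both calls held in 3 of 6 fits with a library left out. The Cldn3 levels are low. Cldn3 was at 0.157 CPM, or 3 counts, in MRL/lpr+MSC replicate 1, the library with the smallest choroid plexus sum, at 111 CPM. The other 2 libraries of that group had 1.80 and 1.91 CPM. MRL/lpr replicate 3, with a choroid plexus sum of 143 CPM, had 1.99 CPM of Cldn3. MRL/mpj replicate 3, with a sum of 726 CPM, had 0.488 CPM of Cldn3. Cldn1, another mainly epithelial claudin, was highest in the 2 choroid-rich libraries, at 23.4 and 15.3 CPM against 0.749 to 3.83 CPM elsewhere, and was not called. When MRL/lpr+MSC was compared with MRL/mpj, limma voom called 0 of the 13 genes tested, at a median of 0.30 and with 4 at an unadjusted p under 0.05. Cldn3 did not pass the filter in that comparison and was not tested. The 14 genes together summed to 269 to 273 CPM in MRL/mpj, 312 to 336 CPM in MRL/lpr and 301 to 344 CPM in MRL/lpr+MSC libraries. Epithelia such as choroid plexus also express several of these genes, and their part in the levels was not tested.

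Other barrier transporters and receptors showed 0 rises and 2 falls among 18 in MRL/lpr against MRL/mpj mice, with a median of 0.01. Slc7a5, the large neutral amino acid transporter LAT1, had 67.5, 65.9 and 75.2 CPM in MRL/mpj mice and 39.4, 39.99 and 41.0 CPM in MRL/lpr mice. The difference of -0.78 on the log2 scale (SE 0.07, adjusted p = 0.00373 by limma voom) was called in all 6 fits that left out a library. The MRL/lpr+MSC libraries had 57.0, 42.6 and 38.0 CPM of Slc7a5, a log2 fold change of -0.63 just outside the threshold (adjusted p = 0.0506 by limma voom). Tfrc, the transferrin receptor that carries iron across the barrier, fell by 0.44 on the log2 scale in MRL/lpr mice (adjusted p = 0.0240 by limma voom) and was called in 2 of the 6 fits that left out a library. Of the 18 genes, 1 rose in MRL/lpr+MSC mice, Slc16a1, the lactate and monocarboxylate transporter MCT1, by 0.38 (adjusted p = 0.0301 by limma voom), and this call held in 1 of the 6 fits. In MRL/lpr mice the log2 fold change of Slc16a1 was 0.43, without overlap with MRL/mpj but not called (adjusted p = 0.0762 by limma voom). Slc7a5, Tfrc and Slc16a1 are also expressed outside the endothelium.

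**Figure D5:**
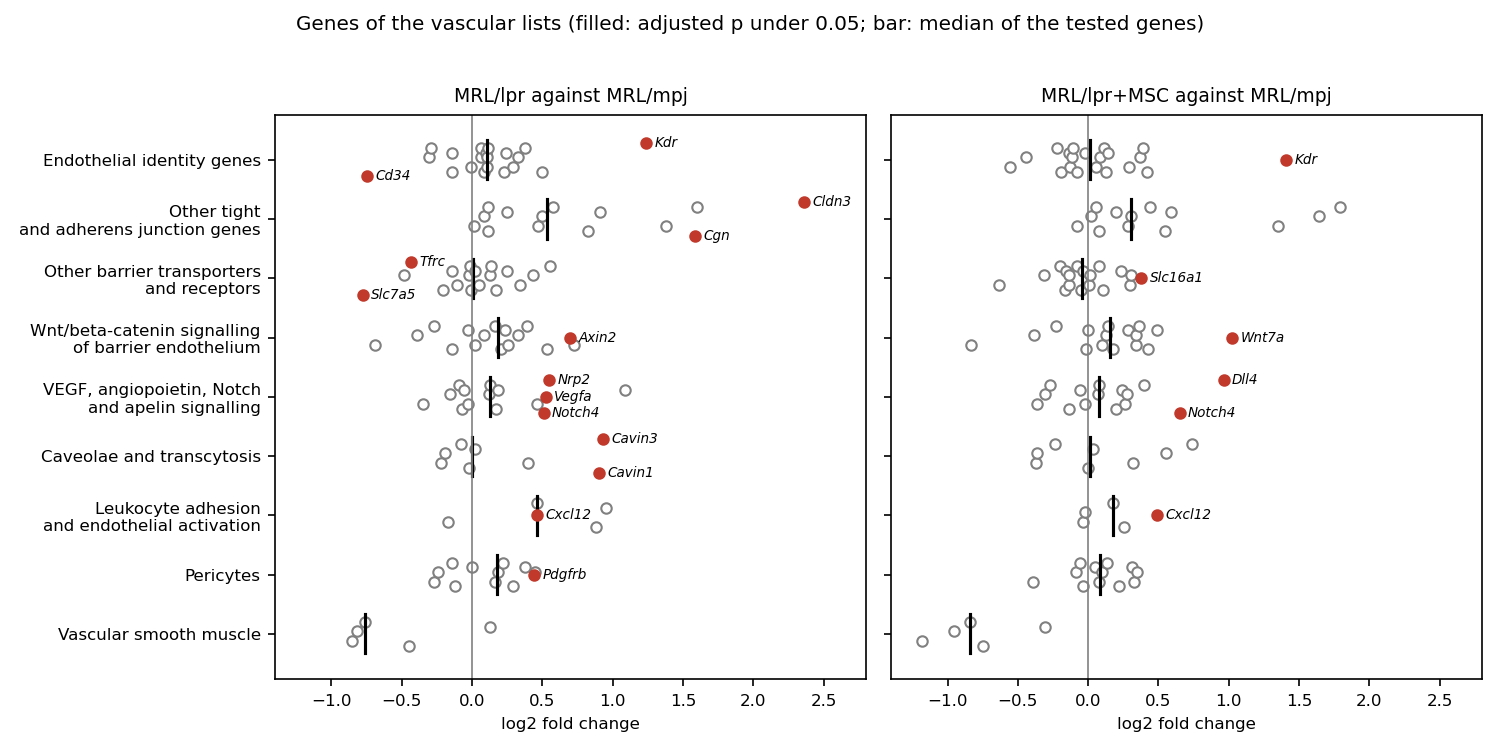
Log2 fold change (x axes) of the tested genes in 9 vascular lists for MRL/lpr and MRL/lpr+MSC against MRL/mpj, with a point for each gene, filled and named where the adjusted p was under 0.05, and a bar at the median of each list. Kdr stands out to the right among the endothelial identity genes at 1.24 and 1.41, and the medians of the list of vascular smooth muscle lie lowest, at -0.76 and -0.84.

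Wnt and beta-catenin genes, which specify and maintain the barrier, showed 1 rise and 0 falls among 16 in each comparison with MRL/mpj, at medians of 0.18 and 0.16. Axin2, a target of beta-catenin, rose by 0.69 in MRL/lpr mice (adjusted p = 0.0389 by limma voom), from 18.2 ± 3.93 to 29.1 ± 2.17 CPM (SD, n = 3). Wnt7a, a ligand from brain tissue that acts on endothelium, rose by 1.03 in MRL/lpr+MSC mice (adjusted p = 0.00676 by limma voom). It had 11.4, 11.6 and 12.1 CPM in MRL/mpj mice, 18.96, 15.4 and 24.2 CPM in MRL/lpr mice and 27.7, 21.1 and 23.9 CPM in MRL/lpr+MSC mice, so that no MRL/lpr library overlapped with MRL/mpj, although the first difference was not called (log2 fold change 0.72, adjusted p = 0.0553 by limma voom). The calls held in 2 of 6 fits for Axin2 and 4 of 6 for Wnt7a when a library was left out.

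Caveolae and transcytosis genes showed 2 rises and 0 falls among 8 in MRL/lpr against MRL/mpj mice, at a median of 0.00. The coat proteins Cavin1 and Cavin3 rose by 0.90 and 0.93 on the log2 scale (adjusted p = 0.0245 and 0.0475 by limma voom), while Cav1, the caveolin they coat, had a log2 fold change of -0.19 that was not called. With a library left out the Cavin1 call held in 2 of 6 fits and the Cavin3 call in 1 of 6. In the choroid-rich replicate 2 of MRL/lpr and MRL/lpr+MSC, Cavin1 was the highest of its group, at 64.7 and 54.9 CPM. Cavin3 was the lowest of its group in the first, at 16.3 CPM, and the highest in the second, at 20.6 CPM. The part of other tissue in these levels was not tested. By limma voom 0 of 8 were called in MRL/lpr+MSC against MRL/mpj, with 2 at an unadjusted p under 0.05. Of the 8 genes of leukocyte adhesion and endothelial activation, 5 were expressed enough to be tested, and Cxcl12, a chemokine of vascular and other cells, rose by 0.46 and 0.49 in the 2 comparisons with MRL/mpj (adjusted p = 0.0273 and 0.0474 by limma voom). These calls held in 2 of 6 and 1 of 6 fits with a library left out. Vcam1 and Icam1, the adhesion molecules of activated endothelium, were not called, at log2 fold changes of 0.46 and 0.88 in MRL/lpr mice. The selectin genes Sele and Selp were at 0 counts in at least 1 library and were not tested.

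Pericytes and smooth muscle cells form the outer wall of brain vessels. Of 12 pericyte genes, 1 rose in MRL/lpr mice, the receptor gene Pdgfrb by 0.44 (adjusted p = 0.0345 by limma voom), from 27.1 ± 0.151 to 36.6 ± 3.34 CPM (SD, n = 3), a call that held in 2 of 6 fits with a library left out. By limma voom 0 were called when MRL/lpr+MSC was compared with MRL/mpj, with 3 at an unadjusted p under 0.05. Pdgfrb was the highest of its group in the choroid-rich replicate 2 of MRL/lpr and MRL/lpr+MSC, at 39.2 and 34.2 CPM. The part of other tissue in its level was not tested. The summed pericyte level was 309 ± 37.9 CPM in MRL/mpj mice, 314 ± 15.2 CPM in MRL/lpr mice and 314 ± 6.07 CPM in MRL/lpr+MSC mice (SD, n = 3). Of 5 vascular smooth muscle genes tested by limma voom, 0 were called in either comparison with MRL/mpj, with 2 and 3 at an unadjusted p under 0.05. Acta2, smooth muscle actin, averaged 22.5 ± 4.92 CPM in MRL/mpj, 13.6 ± 4.23 CPM in MRL/lpr and 11.7 ± 3.13 CPM in MRL/lpr+MSC libraries (SD, n = 3), without overlap with MRL/mpj.

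Between MRL/lpr+MSC and MRL/lpr mice, 0 genes of any of the lists were called by limma voom, with 0 to 3 genes of a list at an unadjusted p under 0.05. The members' log2 fold changes ran from -0.36 for Ocln to 0.19 for Flt1, 5 above 0 and 5 below, with a median of 0.00. Their intervals were narrowest for Tjp1, Pecam1 and Flt1, and widest for Plvap, from -1.14 to 0.79.

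By the likeness of their log2 CPM over the 9 libraries, among the 14946 genes that averaged 1 CPM or more, the genes closest to Cldn5 were 4632415L05Rik, D230017M19Rik and Nkain3 with a Pearson r of 0.98 each, Gm43622 with 0.97 and Sap130 with 0.96. Those closest to Plvap were C1qtnf12, Mipep and Orai2 with 0.95 each and Stk39 and C1qtnf1 with 0.94 each. None of these 10 is in a vascular list. The 9 points share the strain difference for Cldn5 and the choroid-rich libraries for Plvap, and so many genes were searched that these values only describe likeness in these libraries.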

How the data were processed

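Poly-A RNA of the hippocampus was sequenced from 9 mice. Per the study's methods, the authors used STAR with mm10 for alignment and HTSeq for counts per GENCODE gene, while the processing notes of the labels name TopHat2 and GRCm38; whether strand was used is not stated. The deposited matrix holds raw counts of 47643 genes, of which 47224 matched a symbol. The authors also deposited FPKM values (counts scaled by gene length and library size), 1 table per library, used here for levels between genes. The authors' own differential tests were not used.

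Here counts were scaled by TMM (30% of log ratios and 5% of levels trimmed). Genes were kept with the equivalent of 10 counts in 3 libraries and 15 in total. Each comparison was fitted on its own 6 libraries by limma voom with robust moderation (limma 3.58.1, R 4.3.3), and genes were called at a Benjamini-Hochberg adjusted p under 0.05, with adjustment over every gene in the fit. The plan named a quasi-likelihood count test, which was not run because the separator of the matrix kept its unit from being registered as counts; voom was the planned substitute. On simulated MRL/lpr against MRL/mpj libraries it recovered 147 of 150 genes changed 2-fold and 72 of 150 changed 1.5-fold, over 16509 to 16521 genes in each of 3 sets, with 9 to 14 false calls. The simulation gave all genes and both groups the same spread, and changed only genes above a count threshold. In the data, the chi-square per gene between libraries was 10.7 to 11.1 within MRL/mpj and 27.8 to 70.9 within MRL/lpr. The simulated recovery and false calls therefore need not hold for the data. Total counts per library ranged from 19475804 to 26912031. Within groups the chi-square per gene between libraries was at least 10.7, so none was counted as a duplicate. The replicate numbers, which the labels do not tie to a litter or batch, were not treated as pairs.

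The 10 members and the 19 lists (208 genes) were chosen with earlier results of these data known. Named genes were every member, Fas, the called genes of each list (at most 4 per direction), otherwise those of highest mean CPM, and the 5 genes most like Cldn5 and Plvap. Others, such as Cldn1, Tek, Tie1 and a further called interferon-induced gene, were chosen after their values were seen. P-values test the difference between groups against the spread between these mice, which was moderated across the genes of the fit. Columns of unknown sample numbered 0. The result of 1 gene is not reported here.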

Additional observations from a re-analysis of the deposited data

How the results depend on the processing

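Alternatives were median-of-ratios size factors, a looser and a stricter low-count filter, a joint fit of all 9 libraries, replicate number as a block, a test against a 1.5-fold change, all 6 MRL/lpr libraries together and each library left out. limma-trend, and leaving both choroid-rich libraries out of MRL/lpr+MSC against MRL/lpr, were chosen after seeing the data. Quasi-likelihood and Wald count tests were not run. Against a 1.5-fold change limma called 102 genes and 0 members in MRL/lpr against MRL/mpj, and 100 genes and 0 members in MRL/lpr+MSC against MRL/mpj, where the null itself is stricter. With all 6 MRL/lpr libraries together, 2 members were called, Cldn5 and Slc2a1, beside 9.14% of 17113 genes.

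The deviations of same-numbered mice from their group means gave mixed correlations, from -0.226 to -0.016 for replicate 1, 0.123 to 0.268 for replicate 2 and 0.042 to 0.422 for replicate 3, and the labels do not say that a number links mice, so the numbers were not taken as pairs. The replicate block gave 3 members in MRL/lpr against MRL/mpj, adding Ocln (0.43, adjusted p = 0.0437 by limma voom) and Slc2a1, beside 1861 genes or 11.1% of all tested. It gave 1 member and 305 genes in MRL/lpr+MSC against MRL/mpj. The cause was not tested.

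With each library left out in turn, the genes called ranged from 163 to 2845 (without MRL/mpj replicate 3 and MRL/lpr replicate 2) and the members from 0 to 1 in MRL/lpr against MRL/mpj. They ranged from 199 to 2732 (without MRL/mpj replicate 1 and MRL/lpr+MSC replicate 1) and from 0 to 1 in MRL/lpr+MSC against MRL/mpj. No gene was called between the MRL/lpr groups in any of these fits.

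In each comparison some members that were not called changed sign when a library was left out, and the rest kept theirs. Among those that changed sign, the log2 fold changes against MRL/mpj ranged from -0.041 to 0.085 for Tjp1 and -0.30 to 0.37 for Plvap in MRL/lpr. In MRL/lpr+MSC they ranged from -0.16 to 0.20 for Ocln, -0.013 to 0.10 for Tjp1, -0.20 to 0.030 for Abcb1a and -0.29 to 0.050 for Plvap. Between the MRL/lpr groups the ranges were -0.027 to 0.095 for Tjp1, -0.057 to 0.019 for Pecam1, -0.23 to 0.040 for Cdh5, -0.090 to 0.12 for Slc2a1, -0.088 to 0.19 for Mfsd2a, -0.098 to 0.14 for Abcb1a and -0.44 to 0.22 for Plvap. Slc2a1 was also at 0.00325 with median-of-ratios size factors and at 0.000994 with all 9 libraries fitted jointly. Without both choroid-rich libraries Tjp1 was at -0.036, Abcb1a at -0.037 and Plvap at 0.028, and 0 members were called. With Pecam1 and Cdh5 in place of the 20 endothelial identity genes as the reference, the relative difference of Tjp1 was -0.20 in MRL/lpr and -0.11 in MRL/lpr+MSC, against -0.06 and -0.03. These causes were not tested. With 3 mice a group, changes near 1.5-fold are only partly within reach.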

Other observations

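Interferon-induced genes, the antiviral response genes that type I interferon switches on, showed 5 rises and 0 falls among 12 in MRL/lpr against MRL/mpj mice, with 12 of 12 above 0 and a median log2 fold change of 1.74 beside 0.03 for all genes tested. The 5 were Ifit1, Isg15, Usp18, Ifi44 and Rtp4. The list summed to 27.98 to 28.1 CPM in MRL/mpj, 56.2 to 150.01 CPM in MRL/lpr and 36.4 to 52.4 CPM in MRL/lpr+MSC libraries, where 3 of 12 rose, with a median of 0.96. With each library left out in turn, each of these calls held in 1 or 2 of the 6 fits. In MRL/lpr against MRL/mpj, 0 to 11 of the 12 genes were called in such fits. The list median stayed between 1.46 and 2.01. In MRL/lpr+MSC against MRL/mpj the calls ran from 0 to 6 and the median from 0.85 to 1.07.

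Among the genes of astrocytes, which surround the vessels, the potassium channel gene Kcnj10 rose and the connexin gene Gjb6 fell in MRL/lpr+MSC against MRL/mpj mice. Each call held in 1 of the 6 fits that left out a library. Of 8 microglial genes, P2ry12, a receptor of resting microglia, fell in MRL/lpr mice, and of 8 neuronal genes Syt1, a synaptic vesicle protein, fell. With a library left out these calls held in 3 of 6 and 2 of 6 fits. Of the microglial genes 4 of 8 were above 0, at a median log2 fold change of -0.02. Of the neuronal genes 2 of 8 were above 0, at a median of -0.38. The neuronal list summed to 10994 to 11990 CPM in MRL/mpj and 7681 to 9816 CPM in MRL/lpr mice, without overlap, but to 8532 to 11667 CPM in MRL/lpr+MSC mice, which overlapped with MRL/mpj. Of 6 oligodendrocyte genes, limma voom called 0 in either comparison with MRL/mpj, with 1 and 3 at an unadjusted p under 0.05. Of the blood cell genes, the beta-globin gene Hbb-bt, whose reads can be shared with near-identical copies, fell in both comparisons. The T cell gene Cd3e rose in MRL/lpr mice, from libraries that include a count of 0. Whether Cd3e passed the low-count filter only through the MRL/lpr libraries, where it was higher, was not tested. Passing in that way favours a rise. In the list of striatal and thalamic neurons, Rgs9 rose in MRL/lpr mice, and in that of fibroblasts Col15a1 rose. With a library left out, the Rgs9 call held in 3 of 6 fits and the Col15a1 call in 1 of 6. The Hbb-bt calls held in 3 of 6 and 6 of 6 fits, and the Cd3e call in 2 of 6.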
